A study of Mus musculus with 12 samples.

Results

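Transcripts of 4 genes that encode death ligands and their receptors were described across T cells sorted from mouse tumours: the ligands Fasl (ENSMUSG00000000817) and Tnfsf10 (ENSMUSG00000039304), the protein of which is called TRAIL, and the receptors Fas (ENSMUSG00000024778) and Tnfrsf10b (ENSMUSG00000022074). They were chosen by name, as ligand and receptor pairs, and are 4 of the 33696 genes in the deposited matrices. The cells came from MC38 tumours, grown from a mouse colon carcinoma line, in mice heterozygous for Kaede, a fluorescent protein that changes from green to red under violet light. On day 14 light was put on the lymph node that drains the tumour, so red cells in a tumour had been in the node at that time, while green cells had not been converted. Tumours got 12 Gy of radiation on that day (RT) or none (NT) and were taken 24 h (day 1) or 72 h (day 3) later. Some animals taken at day 3 had received 10 µg of FTY720, a drug that holds lymphocytes in lymphoid tissue, by intraperitoneal injection on day 15. Day 1 thus had NT and RT tumours, and day 3 also had both of these with FTY720, which makes 6 conditions. Tumours were pooled by 4, with 2 such pools per condition and 12 in all. All cells passed magnetic enrichment for CD4 and CD8 cells and a sort for live CD90.2-positive cells, so tumour cells, the other side of a killing contact, were not sampled.

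Fas ligand and TRAIL are membrane proteins of the tumour necrosis factor family that T cells use to kill. Fas and the TRAIL receptor carry a death domain in the cytoplasm, which recruits the adaptor FADD and caspase-8 when the ligand binds. In T cells Fas also limits repeated responses, since activated T cells can kill one another or themselves through it.

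The stretch just before the transcription start is shown for the members that RefSeq's table holds, because the results below turn on how much RNA each gene gave. Entries for 3 of the 4 genes were matched, with coordinates of build GRCm38.p6. The deposited counts were made on mm39, so the coordinates below are not those of the counts. Each is 250 bases, 5′ to 3′ on the gene's strand, and capitals mark matches to the short motifs listed after them. Fasl lies at chr1:161788496-161788745 on the minus strand, Fas at chr19:34290409-34290658 on the plus strand and Tnfsf10 at chr3:27316827-27317076 on the plus strand.
Fasl: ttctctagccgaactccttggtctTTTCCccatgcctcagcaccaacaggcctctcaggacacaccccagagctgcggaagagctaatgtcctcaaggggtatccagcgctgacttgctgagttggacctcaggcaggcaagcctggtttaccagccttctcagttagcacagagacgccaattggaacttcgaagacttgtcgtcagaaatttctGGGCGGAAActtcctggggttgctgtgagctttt
Fas: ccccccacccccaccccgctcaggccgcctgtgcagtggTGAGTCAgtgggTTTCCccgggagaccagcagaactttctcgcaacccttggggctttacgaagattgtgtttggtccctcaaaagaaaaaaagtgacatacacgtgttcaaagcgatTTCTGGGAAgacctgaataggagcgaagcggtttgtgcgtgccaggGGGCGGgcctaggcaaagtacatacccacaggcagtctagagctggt
Tnfsf10: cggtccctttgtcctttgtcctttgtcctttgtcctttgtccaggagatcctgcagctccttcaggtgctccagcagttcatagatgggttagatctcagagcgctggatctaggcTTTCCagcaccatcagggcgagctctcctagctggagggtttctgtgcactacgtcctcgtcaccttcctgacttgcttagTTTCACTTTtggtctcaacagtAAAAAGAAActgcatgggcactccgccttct

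The motifs were searched on both strands and were chosen with the sequences in view. GGAAA, the core letters bound by NFAT, was found at 2 places before Fasl, 1 before Fas and 1 before Tnfsf10, and 55.6% of all 32851 windows of this length hold it. One of the Fasl matches overlaps a GC box, GGGCGG, which Fas also holds and which is in 32.7% of windows. The AP-1 letters TGANTCA and the STAT letters TTCNNNGAA were found once each before Fas, in 6.75% and 7.02% of windows. A rarer interferon motif, called IRF, was also searched. It is in 2.98% of windows and had 0 matches before Fasl, Fas and Tnfsf10. TTTCNNTTT, found in interferon response elements, was matched at 2 places before Tnfsf10 and is in 9.37% of windows. These are letter matches, and no binding was measured.

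The 2740 cells kept, of 2816 barcodes, gave 17 to 322 cells and 337319 to 7891316 UMIs (unique molecular identifiers, which count RNA molecules) per sample of red or green cells. No barcode was shared between wells. Clusters, built without the 4 genes, were named from markers and held 1320 cells called CD8-like, 596 called Treg-like for regulatory T cells, 412 called CD4 conventional-like, 54 called naive CD4-like and 353 called naive CD8-like. One of the naive CD8-like clusters was led by Eomes and Id3, which memory cells also express. The colour names in the replicate 2 wells conflict with the sample labels: for 12 of 24 hashed samples red and green are exchanged relative to the labels' tag numbers, matched to sequences through replicate 1. Colours below follow the deposited matrices, the value with the label colours is given beside each colour result of the 4 genes that passed the test, and as a count for the gene lists, and sums over both colours are the same under either naming. Both day 1 conditions shared a well with NT day 3 and the remaining conditions were run together in a second one, once per replicate, so radiation at day 1 and under FTY720 was compared within wells and radiation at day 3 across them. In a sum over cells, fewer expressing cells and less RNA per cell cannot be told apart. P-values measure the spread between these tumour pools.

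Fasl, which encodes the ligand of Fas, was highest in CD8-like cells and lowest in Treg-like and naive CD4-like cells. With both colours summed it stood at 192 ± 41.3 CPM (UMIs scaled to a total of 1000000 per sum) in CD8-like cells (SD, n = 12 pools), 135 ± 43.2 in CD4 conventional-like cells (n = 11), 82.9 ± 18.0 in naive CD8-like cells (n = 9), 32.8 ± 15.6 in Treg-like cells (n = 12) and 14.9 ± 9.86 in naive CD4-like cells (n = 5). The CD8-like pools ran from 136 to 297 and the Treg-like pools from 16.5 to 66.4, with no overlap. Between neighbours in that order, naive CD8-like cells exceeded Treg-like cells in 9 of 9 pools, by 1.53 ± 0.36 (SD) on the log2(CPM + 1) scale (two-sided exact permutation over sign flips within pools, p = 0.00391, which is the smallest possible with 9 pools; adjusted over 16 neighbour pairs p = 0.0391). The naive CD8-like level differed between its clusters, with Fasl in 42.3% of thinned cells of cluster 5, led by Clnk, Eomes and Id3, and in 14.3% of cluster 9, which Ccr7 and Lef1 mark. Over all thinned Treg-like cells the share was 16.5%, so cluster 9 was not above them by this measure. The clusters were not tested apart. The other 3 neighbour steps did not pass, with adjusted p from 0.0729 to 0.143. Every pair of the 3 classes of effector and regulatory cells was also tested, a choice made after the data were seen, with p adjusted over 12 pairs. CD8-like cells exceeded Treg-like cells by 2.62 ± 0.72 in 12 of 12 pools (exact permutation adjusted p = 0.00293), and CD4 conventional-like cells exceeded Treg-like cells by 1.98 ± 0.91 in 11 of 11 (exact permutation adjusted p = 0.00391). CD8-like cells exceeded CD4 conventional-like cells by 0.54 ± 0.56 in 8 of 11 (exact permutation adjusted p = 0.0273), a step that did not pass among the neighbour pairs.

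Tnfsf10, the TRAIL gene, followed a similar but flatter order. It stood at 123 ± 29.1 CPM in CD8-like cells (n = 12), 108 ± 35.1 in CD4 conventional-like cells (n = 11), 64.7 ± 20.9 in Treg-like cells (n = 12), 46.5 ± 23.8 in naive CD8-like cells (n = 9) and 18.3 ± 22.1 in naive CD4-like cells (n = 5). CD4 conventional-like cells exceeded Treg-like cells in 10 of 11 pools, by 0.75 ± 0.73 on the same log2 scale (exact permutation p = 0.00488, adjusted p = 0.0391). The difference was 0.39 with the clusters of mixed lineage left out (adjusted p = 0.386). CD8-like cells exceeded Treg-like cells by 0.96 ± 0.66 in 10 of 12 pools (exact permutation, adjusted over the 12 added pairs p = 0.00586), and CD8-like and CD4 conventional-like cells differed by less than their spread.

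No difference in Fas between classes passed the test. Its means ran from 28.9 ± 15.7 CPM in naive CD8-like cells (n = 9) to 44.4 ± 25.4 in CD4 conventional-like cells (n = 11), with 31.2 ± 12.2 in CD8-like and 30.1 ± 12.2 in Treg-like cells (n = 12 each). Naive CD4-like cells held 41.6 ± 27.9 (n = 5, 32 UMIs in all). No neighbour step for Fas passed the exact permutation test, the smallest adjusted p being 0.431. The CD8-like and Treg-like classes, whose Fasl differed in every pool, differed in Fas by 0.07 ± 0.58 on the log2 scale (SD, n = 12). 2 of the added pairs passed under an alternative: CD8-like minus CD4 conventional-like was -0.88 with the mixed clusters left out (exact permutation adjusted p = 0.0469, against 0.267), and CD4 conventional-like minus Treg-like was 0.71 with the lineage read from each cell (adjusted p = 0.0322, against 0.122).

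Tnfrsf10b, the mouse receptor for TRAIL, ran opposite to Fasl in 2 classes. Treg-like cells held 21.7 ± 8.38 CPM (n = 12), naive CD8-like cells 16.6 ± 5.24 (n = 9), CD4 conventional-like cells 10.7 ± 7.70 (n = 11), naive CD4-like cells 4.63 ± 7.77 (n = 5, 2 UMIs in all) and CD8-like cells 4.12 ± 2.85 (n = 12). Treg-like cells exceeded CD8-like cells in 12 of 12 pools, with a CD8-like minus Treg-like difference of -2.25 ± 1.11 (SD) on the log2 scale (exact permutation, adjusted over the 12 added pairs p = 0.00293). Both classes rest on few molecules, 253 UMIs of Tnfrsf10b in Treg-like and 162 in CD8-like cells. Treg-like cells also exceeded CD4 conventional-like cells among the added pairs, in 10 of 11 pools, with a CD4 conventional-like minus Treg-like difference of -1.34 ± 1.82 (exact permutation adjusted p = 0.0419), which was -1.14 with the mixed clusters left out (adjusted p = 0.0670). The neighbour steps in its order did not pass, with adjusted p from 0.143 to 0.615.

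**Figure D1:**
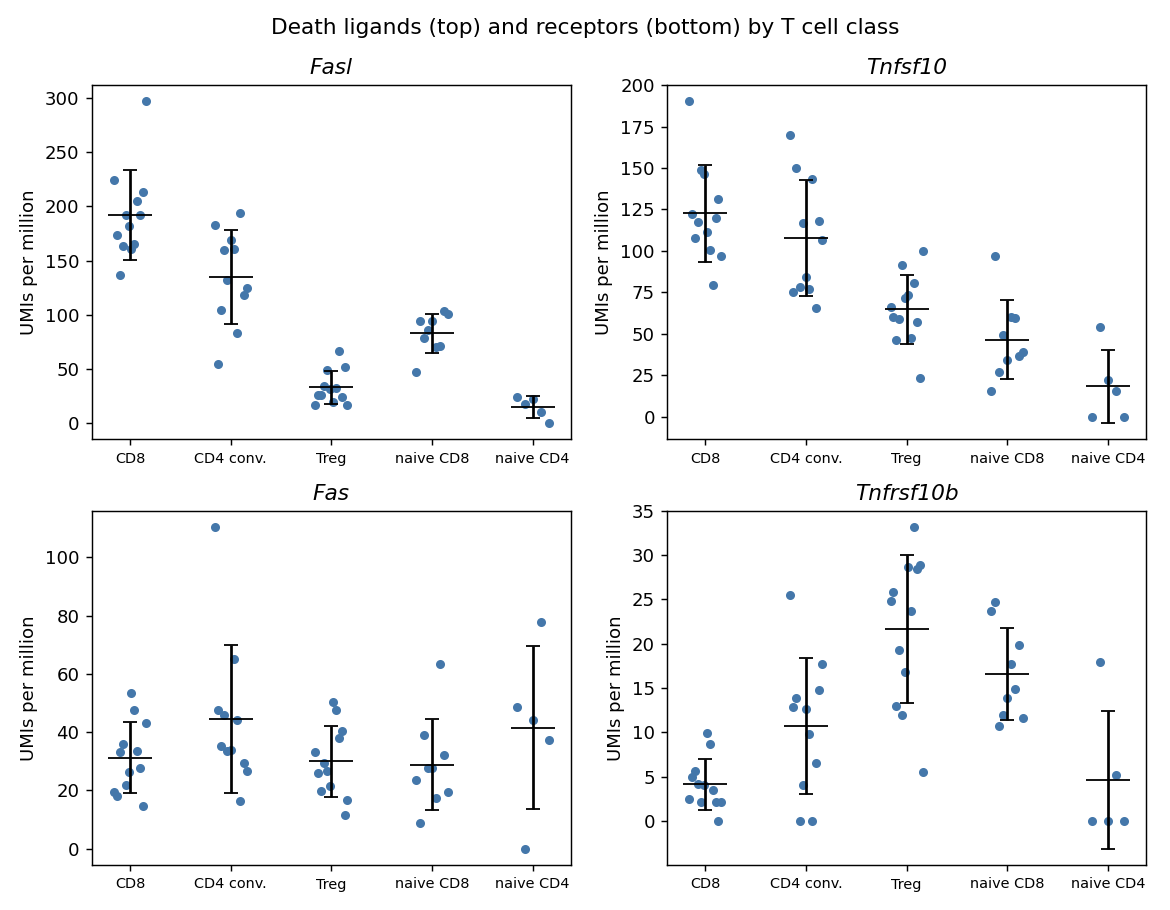
Level of each gene (CPM, both colours summed) in 5 T cell classes. Each point is a tumour pool, the wide bar the mean and the whisker 1 SD; Fasl is highest in CD8-like cells (192 on average) and Tnfrsf10b in Treg-like cells (21.7).

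Single cells were compared after thinning each to 8000 UMIs, which left out 80 CD8-like, 49 Treg-like and 40 CD4 conventional-like cells. At that depth a Fasl UMI was found in 68.9% ± 6.29 of CD8-like cells (SD, n = 12 pools), 56.1% ± 13.8 of CD4 conventional-like cells (n = 11), 16.2% ± 7.70 of Treg-like cells (n = 12) and 8.55% ± 7.45 of naive CD4-like cells (n = 4). Free RNA in the droplets can give such UMIs, and the naive CD4-like share is the lowest level seen. Without thinning the shares were 86.1%, 66.1%, 27.3% and 12.3%, at median depths of 22252.5, 15155, 19617 and 13449 UMIs. Ligand and receptor of the Fas pair were found in the same cell in 13.4% ± 7.73 of CD8-like, 9.68% ± 7.61 of CD4 conventional-like and 1.99% ± 2.57 of Treg-like cells. The TRAIL pair was found together in 1.13%, 3.80% ± 5.39 and 3.80% ± 4.64 of them. Both ligands were found together in 36.01% ± 9.75 of CD8-like, 24.04% ± 8.81 of CD4 conventional-like and 4.58% ± 5.56 of Treg-like cells. Fas, with or without Fasl, was found in 19.8% of CD8-like, 19.1% of CD4 conventional-like and 20.4% of Treg-like cells. It was found in 18.2% ± 7.73 of naive CD8-like (n = 9) and 38.9% ± 15.4 of naive CD4-like cells (n = 4). A joint share depends on the share of each gene, so class differences in it need not be differences in co-expression. These shares are descriptions, with no test.

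The classes were not uniform. Among CD8-like clusters, at equal depth, Fasl was found in 47.2% of cells of cluster 10, led by Cd7 and Gzma, and in 67.4% to 76.9% of cells of the other 5. Tnfsf10 was found in 61.5% to 66.7% of cells of clusters 1, 4 and 15, led by Styk1, Nrgn and Ifi204, and in 33.04% to 36.7% of clusters 0, 10 and 11. Fas was highest among them in cluster 11, led by Il2, Ccl3 and Ifng, where 33.9% of cells had a UMI. In CD4 conventional-like cells, 70.0% of cluster 12, led by Igfbp7 and Csf2, and 22.5% of cluster 7, led by Cd40lg, had a Tnfsf10 UMI. Cluster 14, led by the p53 targets Phlda3, Cdkn1a and Bbc3 and holding cells of several lineages, had Fasl in 85.2%, Fas in 50% and Tnfrsf10b in 20.4% of 54 thinned cells, each the highest share of any cluster. By mean level per 10000 UMIs of a cell, without thinning, Fas was again highest in cluster 14 (0.75). Fasl was higher in cluster 15 (2.68 against 2.51) and Tnfrsf10b in the Treg-like clusters 6 and 8 (0.243 and 0.235 against 0.201). These shares and levels are single values over cells of all pools and carry no test. Pools contributed unevenly to cluster 14. Of its 55 CD8-like cells, 42 came from irradiated green pools, where it held 0% to 37.1% of a pool's CD8-like cells (median 2.63%). The 37.1% belongs to RT day 1 replicate 2, with 97 green CD8-like cells, which gave most of the 42. Colour names conflict with the labels in that pool.

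**Figure D2:**
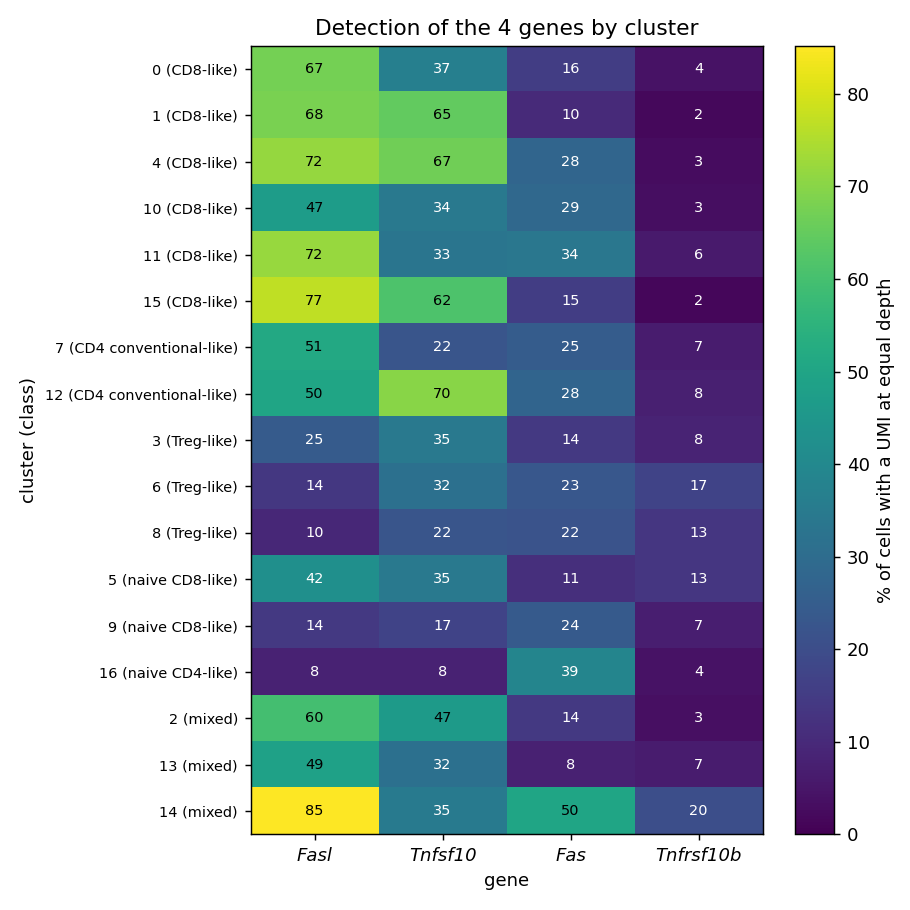
Percent of cells with at least 1 UMI of each gene, per cluster, after thinning to 8000 UMIs; rows are clusters with their class. Cluster 14 is highest for Fasl (85.2%), Fas (50%) and Tnfrsf10b (20.4%), and Tnfsf10 is highest in cluster 12 (70.0%). Pools contributed unevenly to cluster 14.

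The next question was whether cells that had been in the draining node differed from the others of the same tumours. In Treg-like cells Fasl was lower in red cells. The red sums of the 8 pools with both colours held 7.05 to 26.7 CPM (median 19.7) and the green sums 11.3 to 117 (median 57.7). Red was lower in 7 of 8 pools, in 3 of 4 of replicate 1, where colours and labels do not conflict, and in 4 of 4 of replicate 2. The log2 fold change was -1.42 ± 0.27 (SE; edgeR quasi-likelihood test with the pool as a block, adjusted p = 0.0155), where 1.42% of the 8708 genes tested were called. With the label colours it was 0.56 (adjusted p = 1.00). The colours were spread unevenly over the clusters: cluster 3, with Fasl in 24.6% of thinned cells, held 137 green and 80 red cells, while clusters 6 and 8, with 13.9% and 9.62%, held 21 and 33 green and 178 and 134 red cells. Summed myeloid markers had a median of 284 CPM in green and 155 in red Treg-like cells, with 1 of 10 called. The part of either in the result was not tested. Several green sums were small (6 cells and 1 UMI in NT day 1 replicate 1), the adjusted p was 0.0505 with at least 10 cells per sum, and it was 0.0684 without NT day 1 replicate 2 and 0.101 without RT day 1 replicate 2.

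Fas was higher in red CD8-like cells. Red sums ran from 6.99 to 59.5 CPM (median 39.001) and green sums from 6.62 to 39.9 (median 22.5), so the groups overlapped. Red was higher in 7 of 12 pools, and these included all pools of NT at day 1, RT at day 1 and NT at day 3, while red was lower in 5 of the 6 pools of the other wells. The log2 fold change was 0.94 ± 0.25 (SE, edgeR adjusted p = 0.0321), where 6.73% of 8828 genes were called. Clusters 4, 10 and 11, with Fas in 27.9%, 28.8% and 33.9% of thinned cells, held 47, 10 and 7 green and 167, 118 and 115 red cells, and clusters 0 and 1, with 15.5% and 10.04%, held 189 and 196 green and 106 and 83 red cells. Cluster 15 went the other way, with 15.4% and with 20 green and 48 red cells. The part of the clusters in the result was not tested. The log2 fold change was 0.05 with the label colours (adjusted p = 1.00) and 0.77 by DESeq2 (adjusted p = 0.0613), and leaving out any 1 of the 6 pools of NT day 1, RT day 1 or NT day 3 took the adjusted p to between 0.0553 and 0.112.

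The other members did not pass between colours. Fasl stood at 170.001 ± 39.2 CPM in red and 230.2 ± 76.7 in green CD8-like cells (SD, n = 12 pools), with a log2 fold change of -0.31 ± 0.14 (SE, edgeR adjusted p = 0.189). In CD4 conventional-like cells it was lower in red in 6 of 7 pools, with 94.3 ± 35.5 against 178 ± 71.1 and a log2 fold change of -0.91 ± 0.19 (edgeR adjusted p = 0.0930), where 0.106% of 7554 genes were called. Fas was at 0.15 ± 0.32 in Treg-like and 0.74 ± 0.40 in CD4 conventional-like cells (SE, edgeR adjusted p = 0.906 and 0.806). Tnfsf10 had log2 fold changes of 0.16 ± 0.18, -0.23 ± 0.21 and -0.18 ± 0.20 (SE) in CD8-like, Treg-like and CD4 conventional-like cells. Tnfrsf10b passed the filter on low counts in Treg-like cells alone, at 0.30 ± 0.39 (edgeR adjusted p = 0.809).

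**Figure D3:**
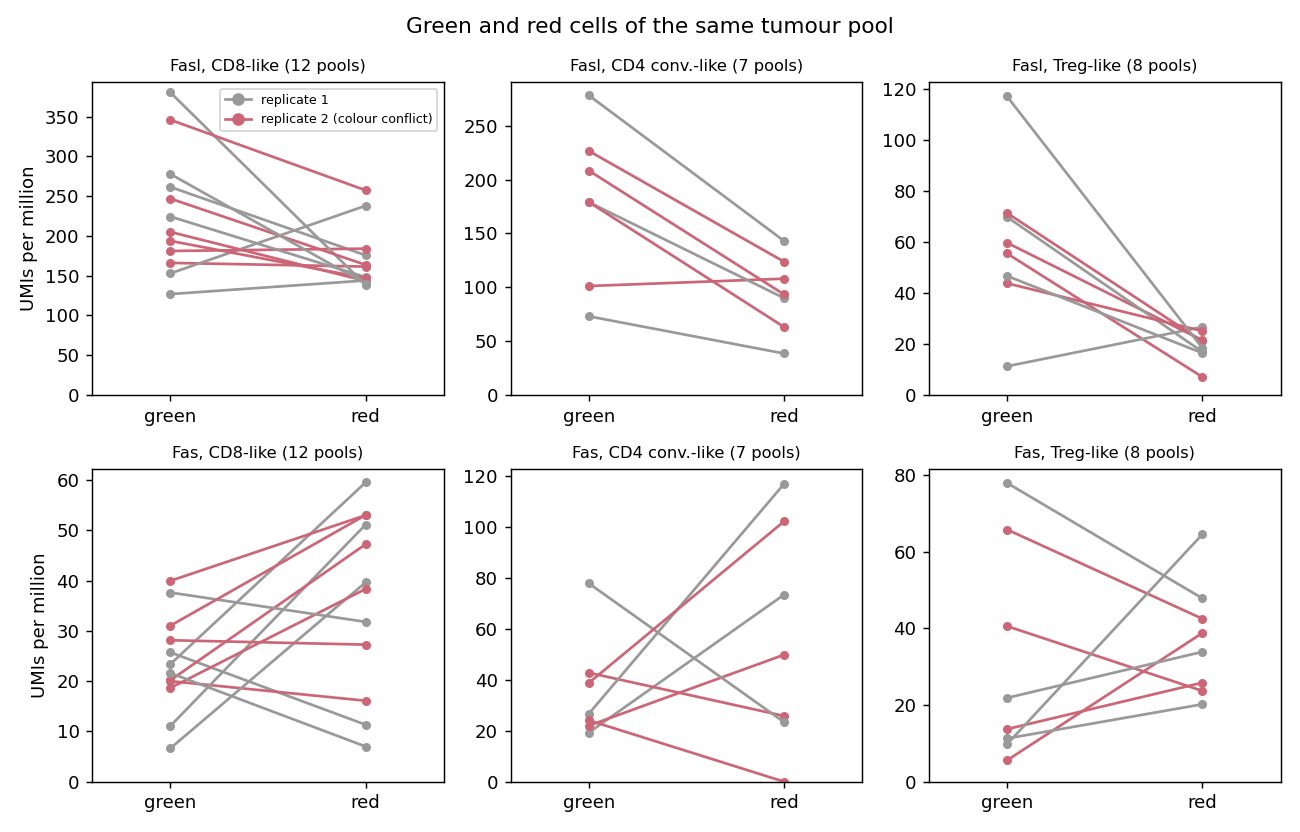
Fasl and Fas (CPM) in green and red cells of the same tumour pool, joined by a line, in 3 classes; grey lines are replicate 1 and red lines replicate 2, whose colour names conflict with the labels. Fasl is lower in red in 7 of 8 Treg-like and 6 of 7 CD4 conventional-like pools.

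Around these genes, 46 genes of the death receptor pathway had been listed. In CD8-like cells 34 were tested between colours, 2 were higher in red and 2 lower, where 6.73% of 8828 genes were called, with a median log2 fold change of -0.01 against -0.01 over all genes. Tnf, a further cytokine of the family, was higher in red (0.83 ± 0.18 SE, edgeR adjusted p = 0.0107), as was Cflar, which blocks caspase-8 activation (0.54 ± 0.15, adjusted p = 0.0444). Bcl2, which protects mitochondria from permeabilisation, was lower (-1.53 ± 0.17, adjusted p = 0.000129), as was Birc2, a ubiquitin ligase of the receptor complex (-0.36 ± 0.10, adjusted p = 0.0399). With the label colours 0 of these 4 passed, and their log2 fold changes ran from -0.26 to 0.12 (edgeR adjusted p = 1.00 for each). With the mixed clusters left out 3 passed, and Birc2 did not (-0.19, adjusted p = 0.470). Of 13 regulators induced by T cell receptor signals, 6 were higher in red CD8-like cells and 4 in red Treg-like cells, among them Egr2 at 2.88 in CD8-like and Egr3 at 3.04 in Treg-like cells, where 1.42% of 8708 genes were called. None of these 6 and 4 passed with the label colours, under which Egr2 was at -0.66 and Egr3 at -1.36 (edgeR adjusted p = 1.00 for each). Under those names 1 gene of all tested was called in CD8-like cells, against 594, and 0 in Treg-like cells, against 124. No pathway gene was called in Treg-like or CD4 conventional-like cells by colour. Summed levels of 6 dendritic cell markers ran from 9.49 to 71.7 CPM in green and 34.8 to 188 in red CD8-like cells, with Flt3 at 0 in red. Their part in the colour results was not tested.

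Radiation was compared first in green CD8-like cells over the 3 strata day 1, day 3 and day 3 with FTY720. The day 3 stratum without FTY720 lay across wells and the fit had no term for the well, so radiation and well cannot be told apart there. Fasl was higher in irradiated pools. Unirradiated pools held 127 to 262 CPM (median 174, n = 6) and irradiated pools 194 to 380.5 (median 262, n = 6). At day 1 both irradiated pools (224 and 194) lay above both unirradiated ones (127 and 166), and the same was true at day 3 (380.5 and 247 against 153 and 181) and under FTY720 (278 and 346 against 262 and 205). How many of the 7423 genes tested separate in this way was not counted, and 1716 had an unadjusted edgeR p below 0.05. The log2 fold change was 0.66 ± 0.14 (SE, edgeR adjusted p = 0.0224), where 6.21% of 7423 genes were called. It was 0.51 (adjusted p = 0.215) with the mixed clusters left out, 0.52 (adjusted p = 0.351) with the label colours, and the adjusted p was 0.0509, 0.0772 and 0.0648 without the second FTY720 pool, the first NT day 3 pool and the other NT day 3 pool.

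Fas had the larger log2 fold change in the same cells, 0.98 ± 0.30 (SE), without passing the test (edgeR adjusted p = 0.0705). Unirradiated pools held 6.62 to 25.7 CPM (median 19.3) and irradiated pools 21.6 to 39.9 (median 29.6), overlapping under FTY720 alone. The value was 0.32 with the mixed clusters left out, and DESeq2 gave an adjusted p of 0.0443. In irradiated green pools 0% to 37.1% of CD8-like cells (median 2.63%) belonged to cluster 14, the p53 cluster, against 0% to 1.39% in unirradiated ones, and the interferon cluster held a median of 26.7% against 4.32%. The 37.1% belongs to RT day 1 replicate 2, where colour names conflict with the labels. Tnfsf10 stood at 113 ± 13.4 in irradiated and 114 ± 25.8 in unirradiated green pools (SD, n = 6 each), a log2 fold change of 0.0033 ± 0.16 (SE).

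In red CD8-like cells Fasl stood at 166 ± 45.8 CPM in irradiated and 174 ± 35.2 in unirradiated pools (SD, n = 6 each), a log2 fold change of -0.05 ± 0.17 (SE, edgeR adjusted p = 1.00), where 0.788% of 9011 genes were called. The difference of the radiation effect between red and green was itself tested. For Fasl it was -0.72 ± 0.22 (SE, edgeR adjusted p = 0.509), where 0.0113% of 8828 genes were called, so the colours were not shown to differ. Fas was at 0.18 ± 0.26 (edgeR adjusted p = 0.992). Tnfsf10 stood lower in irradiated red pools, 103 ± 31.6 against 172 ± 91.7, with a log2 fold change of -0.56 ± 0.25 that did not pass (adjusted p = 0.509). The highest unirradiated sum, 351 CPM in FTY720 replicate 1, held 9 cells.

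**Figure D4:**
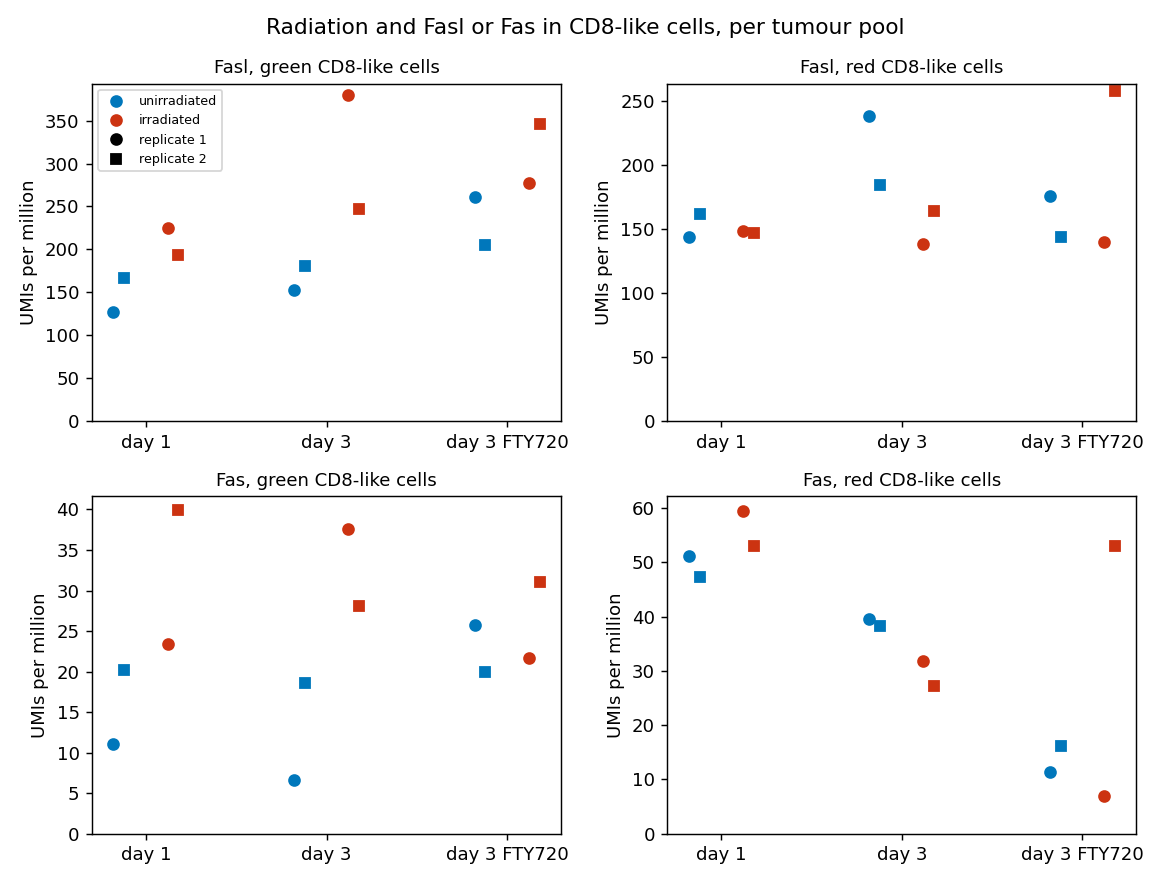
Fasl and Fas (CPM) in green and red CD8-like cells of each tumour pool, by time and treatment; blue points are unirradiated and red points irradiated, circles replicate 1 and squares replicate 2. In green cells every irradiated Fasl value lies above both unirradiated values of its time and treatment. How many other genes do so was not counted.

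With both colours summed, which does not depend on the colour names, no member passed in any class. At day 1, within wells, CD8-like Fas was 33.2 and 36.0 CPM in the unirradiated and 53.4 and 47.7 in the irradiated pools, a log2 fold change of 0.56 ± 0.23 (SE, edgeR adjusted p = 0.866), where 0.0777% of 10294 genes were called. Treg-like Fas was 19.7 and 29.4 in the unirradiated and 50.4 and 47.7 in the irradiated pools at day 1, without overlap, a log2 fold change of 0.99 ± 0.29 (edgeR adjusted p = 0.971), where 0.0241% of 8295 genes were called. At day 3, across wells, it was 26.6 and 21.6 against 37.9 and 40.3 (0.84 ± 0.39, adjusted p = 0.480), where 0.362% were called. Under FTY720 the order was the other way, 33.03 and 25.9 unirradiated against 11.6 and 16.6 irradiated (-0.93 ± 0.63, adjusted p = 0.670), where 0.0723% were called. Tnfrsf10b in Treg-like cells was 12.0 and 16.8 in unirradiated and 33.2 and 28.4 in irradiated pools at day 3 (1.11 ± 0.51, adjusted p = 0.480). In CD4 conventional-like cells Fasl was 54.96 and 104 in unirradiated and 169 and 161 in irradiated pools at day 1 (0.99 ± 0.32, edgeR adjusted p = 1.00), where 0 of 8724 genes were called by edgeR, 227 had an unadjusted p below 0.05 and DESeq2 called 3. In CD8-like cells under FTY720, Fasl had a log2 fold change of 0.44 ± 0.18 with radiation (SE, edgeR adjusted p = 0.229), where 3.28% of genes were called.

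FTY720 itself moved no member past the threshold in any class, with edgeR adjusted p from 0.483 to 1.00. It gave 0.00971% of genes called in CD8-like and 0.0344% in CD4 conventional-like cells, and 0 by edgeR and by DESeq2 in Treg-like cells, where 490 had an unadjusted p below 0.05. The FTY720 comparison set both FTY720 conditions against NT and RT at day 3, and NT day 3 lay in the other well. FTY720 and well are thus partly confounded, as are radiation and well in the day 3 minus day 1 difference. The radiation effect at day 3 minus that at day 1 passed for no member, at -0.14 ± 0.38 (SE) for Fas in CD8-like cells, where 0.243% of genes were called, and -0.84 ± 0.46 for Fasl in CD4 conventional-like cells, where 0.768% were called. For the radiation effect in red minus green in CD4 conventional-like cells, Fasl was at -0.16 ± 0.40, where 0.0662% were called. In Treg-like cells alone, by colour, Fas had log2 fold changes with radiation of 0.73 ± 0.52 in green cells, where 0.0397% of genes were called, and 0.71 ± 0.29 in red cells, where 0.0987% were called (edgeR adjusted p = 0.914 and 0.568). Radiation under FTY720 in CD4 conventional-like cells had 1 unirradiated pool of 12 cells, at 110.4 CPM of Fas, so that arm is assumed to vary like the other groups, and Fas was -2.01 ± 0.67 there (SE, edgeR adjusted p = 0.268), where 0.0115% of genes were called.

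Pathway genes changed with radiation in CD8-like cells. In green cells 6 of 33 tested were higher and 1 was lower, where 6.21% of 7423 genes were called, with a median log2 fold change of 0.19 against 0.02 over all genes. Higher were Daxx, a nuclear protein first found through Fas (1.42 ± 0.35 SE, edgeR adjusted p = 0.0332), Bax, which opens the mitochondrial membrane (1.02 ± 0.21, adjusted p = 0.0183), and the inhibitors Cflar (0.91 ± 0.16, adjusted p = 0.0108) and Bcl2l1 (0.85 ± 0.17, adjusted p = 0.0172). Birc5, which is expressed in dividing cells, was lower (-2.42 ± 0.49, adjusted p = 0.0175), and summed cell cycle markers had a median of 118 CPM in irradiated and 611 in unirradiated green pools. With the label colours 0 of these 7 passed (edgeR adjusted p from 0.256 to 0.498), and with the mixed clusters left out Cflar alone did, of 6 tested (0.97, adjusted p = 0.0492). Over all genes, 1 was called with the label colours and 14 with the mixed clusters left out, against 461. At day 3 with colours summed, 4 of 39 were higher in CD8-like cells, with Daxx at 1.81, Birc3 at 0.67, Cycs at 0.52 and Casp8, the initiator caspase of both receptors, at 0.76 ± 0.17 (adjusted p = 0.0238), where 4.65% of 10294 genes were called. Casp8 (1.30 ± 0.27, adjusted p = 0.0156) and Daxx (2.36 ± 0.38, adjusted p = 0.00392) were also higher in CD4 conventional-like cells at day 3, where 2.69% of 8724 genes were called. With the mixed clusters left out, 1 of the 4 day 3 genes passed in CD8-like cells (edgeR adjusted p from 0.00204 to 0.315). In CD4 conventional-like cells 0 of the 2 did, at log2 fold changes of 0.47 and 1.54 (edgeR adjusted p from 0.187 to 0.656). In the green CD8-like comparison 7 of 14 tested p53 targets were higher, with Phlda3 at 4.01 and Cdkn1a at 3.69, and 8 of 14 interferon-stimulated genes, with Oasl2 at 2.35. With the label colours 0 of these passed, with Cdkn1a at 2.08 and Oasl2 at 1.87 (edgeR adjusted p = 0.283 and 0.162), and with the mixed clusters left out 2 of the p53 targets passed, Cdkn1a (4.14) and Ccng1 (1.44), and 0 of the interferon-stimulated genes. Single pathway genes were called in CD8-like cells in other comparisons: Bax at day 1 (1.05, edgeR adjusted p = 0.0168), Daxx under FTY720 (1.30, adjusted p = 0.0346) and Daxx in red cells (1.08, adjusted p = 0.0205, and 1.62 with the label colours, adjusted p = 0.00281). Daxx was also called in CD4 conventional-like cells for the day 3 minus day 1 effect (2.86, adjusted p = 0.0210). Over all genes the shares called in these comparisons were, in order, 0.0777%, 3.28%, 0.788% and 0.768%. With the mixed clusters left out Daxx under FTY720 still passed (1.13, edgeR adjusted p = 0.0254). Bax at day 1 (0.84, adjusted p = 0.467), Daxx in red cells (0.76, adjusted p = 0.137) and Daxx for the day 3 minus day 1 effect (1.01, adjusted p = 0.515) did not. No pathway gene was called in Treg-like cells by radiation.

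Clonal expansion was read from T cell receptor beta chains. CD8-like cells whose chain was carried by at least 2 cells of the same pool (604 cells) were compared with those whose chain was not (629 cells) within the 11 pools that had at least 5 cells of each kind. Tnfrsf10b was lower in expanded cells, at 2.63 ± 2.57 against 5.19 ± 3.78 CPM (SD), and higher in 1 of 11 pools (exact sign-flip permutation p = 0.00391, adjusted over 4 genes p = 0.0156). It rests on 58 and 98 UMIs, and with at least 3 cells per clone the adjusted p was 0.125 over 8 pools. Fasl stood at 199.9 ± 52.1 in expanded and 187 ± 52.8 in other cells, and neither it, Fas nor Tnfsf10 passed (exact permutation adjusted p = 0.449 for each).

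Over the 23 CD8-like sums per pool and colour with at least 10 cells, the genes with the most similar levels were Atp2b4 (Pearson r = 0.81), Zfyve1 (0.80) and Lilrb4a (0.78) for Fasl, and Ksr1 (0.77), Nfkbiz (0.71) and Gna13 (0.68) for Fas. They were Cox19 (0.78), Sf3b5 (0.74) and Srp14 (0.71) for Tnfsf10, and Bscl2 (0.74), Amz2 (0.73) and Riok3 (0.72) for Tnfrsf10b. The sums share pools, libraries and depth, and these were the best of all genes tested, so the values are descriptions.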

How the data were processed

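The 12 deposited samples are the RNA, hashtag and T cell receptor libraries of 4 wells. Their deposited matrices give unnormalised counts of UMIs for each gene in each barcode, and the submitters' processing notes name Cell Ranger 8.0.1 and mm39. The deposited receptor tables hold counts of UMIs per contig. How the authors filtered barcodes: not given in the sources used here. A doublet caller was not run.

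Barcodes under 500 genes or over 10% mitochondrial UMIs were removed, and the rest were assigned to the hashtag with at least 20 UMIs and 3 times the next. Cells were clustered without the 4 genes (scanpy 1.11.5, leidenalg 0.10.2, 2000 variable genes, 30 components, 15 neighbours, resolution 1.0). Cells of 3 mixed clusters (364 cells) were split cell by cell by Cd4, Cd8a, Cd8b1 and Foxp3. That rule, set with the data in view, returned the cluster's class for 94.97% of cells of named clusters. Counts were summed per pool, colour and class (at least 5 cells) and tested with edgeR 4.0.16 (filterByExpr, TMM, quasi-likelihood, Benjamini-Hochberg over all genes, threshold 0.05). DESeq2 1.42.0 was an alternative. Levels are CPM, and lineage and clone tests used log2 with a pseudocount of 1. On simulated counts for red against green CD8-like cells (8645 genes), edgeR recovered 93% of 2-fold and 100% of 4-fold changes, and for radiation in green CD8-like cells (7403 genes) 40% and 98%. In Treg-like cells the shares were 60% and 98% by colour (8482 genes) and 12% and 66% for green radiation (7309 genes), and in CD4 conventional-like cells 47% and 99% (7456 genes) and 30% and 90% (5482 genes). The simulation gave all genes the same spread and each gene the same mean share in every sum. Changed genes were drawn from those that pass the filter on low counts. The shares recovered are thus not the power for any 1 of the 4 genes.

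Replicate numbers mark a shared well. Deviations of same-numbered pools correlated with r from -0.094 to 0.097 across genes, so they were not treated as pairs. Red and green cells of a pool come from the same tumours, and the pool was a block. The members and lists were chosen with earlier results of these data known. The rule for named genes covered the 4 members, called pathway genes (at most 6 per comparison by size) and the 3 genes most correlated with each member. Not every member without a call is printed. Genes named from the p53, interferon and T cell receptor lists were picked after their values were seen.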

Additional observations from a re-analysis of the deposited data

Results flagged for a closer look

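Among 80 groups of 4 to 10 pools, 7 had a pool far from the others by Dixon's test at the 95% level, and chance flags about 1 in 20 groups. Fas stood at 78.0 CPM in green CD4 conventional-like cells of RT day 1 replicate 1 (6 cells), with the next irradiated pool at 38.8. Fas was also far above the rest, at 110.4, in CD4 conventional-like cells of FTY720 replicate 2 with colours summed (12 cells, next 47.6). Fasl reached 257 in red CD8-like cells of RT with FTY720 replicate 2 (24 cells, next 164). In the same pool Tnfrsf10b was the lowest of 6 in Treg-like cells, at 6.99 in red cells and 5.54 with colours summed, each from 1 UMI. Tnfsf10 reached 192 in green CD4 conventional-like cells of RT day 3 replicate 1 (7 cells, next 92.2). Tnfsf10 reached 351 in red CD8-like cells of FTY720 replicate 1 (9 cells, next 169).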

How the results depend on the processing

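Of the 4 genes, 3 of 100 fitted comparisons passed the edgeR threshold, and 8 could not be fitted after the filter on low counts. All 3 lost the call or changed sign with the label colours. Low counts limited Tnfrsf10b most. Counts of genes called depended on the setting, and the cause was not tested. Values outside the reported call, direction or 1.5-fold range follow, and whole numbers are counts of genes called. Pools without a sum in a class gave no value when left out, and with 1 pool fewer the smallest p of an exact permutation test is larger. The extra pairs of classes were chosen after seeing the data.

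With RLE size factors, Treg-like cells gave 11 for radiation under FTY720, 2 for the red minus green radiation effect. Tnfrsf10b for FTY720 in Treg-like cells 0.000705 took the other sign on the log2 scale.

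With DESeq2, CD8-like cells gave 898 for red against green, 776 for radiation in green cells, 197 for radiation in red cells, 26 for radiation at day 1, 15 for FTY720, 151 for the day 3 minus day 1 radiation effect, 10 for the red minus green radiation effect. Treg-like cells then gave 278 for red against green, 8 for radiation in green cells, 94 for radiation in red cells, 120 for radiation at day 3, 82 for radiation under FTY720, 7 for the day 3 minus day 1 radiation effect, 2 for the red minus green radiation effect. CD4 conventional-like cells had 22 for red against green, 10 for radiation in green cells, 3 for radiation in red cells, 3 for radiation at day 1, 70 for radiation under FTY720, 13 for FTY720, 126 for the day 3 minus day 1 radiation effect, 3 for the red minus green radiation effect. Tnfsf10 for radiation in green cells in CD8-like cells -0.0272, Tnfrsf10b for FTY720 in Treg-like cells 0.00411, Tnfrsf10b for the red minus green radiation effect in Treg-like cells -0.0239, Tnfsf10 for the red minus green radiation effect in CD4 conventional-like cells 0.0560 took the other sign on the log2 scale. No longer past the threshold was Fas for red against green in CD8-like cells 0.77 (adjusted p = 0.0613).

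Without the filter on low counts, CD8-like cells gave 1116 for red against green, 1089 for radiation in green cells, 399 for radiation in red cells, 290 for radiation at day 1, 960 for radiation at day 3, 907 for radiation under FTY720, 179 for FTY720, 488 for the day 3 minus day 1 radiation effect, 162 for the red minus green radiation effect. Treg-like cells then gave 475 for red against green, 92 for radiation in green cells, 252 for radiation in red cells, 90 for radiation at day 1, 256 for radiation at day 3, 185 for radiation under FTY720, 49 for FTY720, 87 for the day 3 minus day 1 radiation effect, 46 for the red minus green radiation effect. CD4 conventional-like cells then gave 135 for red against green, 182 for radiation in green cells, 84 for radiation in red cells, 77 for radiation at day 1, 450 for radiation at day 3, 185 for radiation under FTY720, 78 for FTY720, 249 for the day 3 minus day 1 radiation effect, 46 for the red minus green radiation effect. Tnfsf10 for radiation in green cells in CD8-like cells -0.0479, Fasl for the day 3 minus day 1 radiation effect in CD8-like cells -0.0444 took the other sign on the log2 scale.

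With at least 10 cells per sum, CD8-like cells gave 22 for radiation in red cells. Treg-like cells then gave 15 for red against green, 37 for radiation in green cells, 0 for radiation in red cells, 0 for radiation at day 1, 2 for radiation under FTY720, 4 for the red minus green radiation effect. Among CD4 conventional-like cells there were 17 for red against green, 1 for radiation in green cells, 1 for radiation at day 1, 3 for radiation under FTY720, 6 for FTY720, 8 for the red minus green radiation effect. Fas for red against green in Treg-like cells -0.12, Tnfrsf10b for radiation in green cells in Treg-like cells -0.0111, Fas for radiation in red cells in CD4 conventional-like cells 0.50, Fasl for FTY720 in CD4 conventional-like cells -0.0210, Fas for the red minus green radiation effect in CD4 conventional-like cells 0.42 took the other sign on the log2 scale. No longer past the threshold was Fasl for red against green in Treg-like cells -1.40 (adjusted p = 0.0505). On the log2 scale Fasl, naive CD8-like minus Treg-like among neighbours stood at 1.53 (exact permutation adjusted p = 0.0625), Fas, CD4 conventional-like minus naive CD4-like among neighbours stood at -0.37 (exact permutation adjusted p = 0.308), Fas, naive CD4-like minus CD8-like among neighbours stood at 0.61 (exact permutation adjusted p = 0.308), Tnfsf10, CD4 conventional-like minus Treg-like among neighbours stood at 0.82 (exact permutation adjusted p = 0.0625).

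With the mixed clusters left out, CD8-like cells gave 14 for radiation in green cells, 1 for radiation in red cells, 0 for radiation at day 1, 116 for the day 3 minus day 1 radiation effect. Treg-like cells then gave 0 for radiation at day 1, 3 for the red minus green radiation effect. CD4 conventional-like cells then gave 15 for red against green, 15 for radiation in green cells, 3 for radiation at day 1, 30 for radiation at day 3, 6 for the day 3 minus day 1 radiation effect, 0 for the red minus green radiation effect. Fasl for radiation in red cells in CD8-like cells 0.0281, Fasl for radiation at day 1 in CD8-like cells -0.0321, Tnfrsf10b for radiation at day 3 in CD8-like cells 0.24, Fasl for FTY720 in CD8-like cells -0.000585, Fas for radiation in green cells in CD4 conventional-like cells -0.0281, Fas for radiation in red cells in CD4 conventional-like cells 0.49, Tnfsf10 for radiation at day 3 in CD4 conventional-like cells -1.83, Tnfsf10 for the day 3 minus day 1 radiation effect in CD4 conventional-like cells -1.51, Fas for the red minus green radiation effect in CD4 conventional-like cells 0.74 took the other sign on the log2 scale. No longer past the threshold was Fasl for radiation in green cells in CD8-like cells 0.51 (adjusted p = 0.215). On the log2 scale Fasl, naive CD8-like minus Treg-like among neighbours stood at 1.51 (exact permutation adjusted p = 0.0625), Tnfsf10, CD4 conventional-like minus Treg-like among neighbours stood at 0.39 (exact permutation adjusted p = 0.386), Fas, CD8-like minus CD4 conventional-like among all pairs stood at -0.88 (exact permutation adjusted p = 0.0469), Tnfsf10, CD4 conventional-like minus Treg-like among all pairs stood at 0.39 (exact permutation adjusted p = 0.29), Tnfrsf10b, CD4 conventional-like minus Treg-like among all pairs stood at -1.14 (exact permutation adjusted p = 0.067).

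With the lineage read from Cd4, Cd8a, Cd8b1 and Foxp3 of each cell, Treg-like cells gave 1 for radiation in green cells, 0 for radiation at day 1, 49 for radiation at day 3, 1 for FTY720, 2 for the red minus green radiation effect. CD4 conventional-like cells had 1 for radiation in green cells, 15 for radiation under FTY720. Tnfsf10 for radiation in green cells in CD8-like cells -0.0324, Tnfrsf10b for radiation at day 3 in CD8-like cells 0.54, Fasl for the day 3 minus day 1 radiation effect in CD8-like cells -0.00478, Fas for the day 3 minus day 1 radiation effect in CD8-like cells 0.0842, Fasl for radiation at day 3 in Treg-like cells -0.19, Tnfsf10 for radiation at day 3 in Treg-like cells 0.00588, Tnfsf10 for radiation under FTY720 in Treg-like cells -0.26, Tnfrsf10b for FTY720 in Treg-like cells 0.20, Fasl for the day 3 minus day 1 radiation effect in Treg-like cells -0.11, Tnfrsf10b for the red minus green radiation effect in Treg-like cells -0.0297, Fasl for FTY720 in CD4 conventional-like cells -0.25 took the other sign on the log2 scale. On the log2 scale Fasl, CD8-like minus CD4 conventional-like among neighbours stood at 0.59 (exact permutation adjusted p = 0.0156), Fas, CD4 conventional-like minus Treg-like among all pairs stood at 0.71 (exact permutation adjusted p = 0.0322).

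With the stricter cell filter, Treg-like cells gave 0 for radiation at day 1, 2 for the red minus green radiation effect.

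With the label colours, CD8-like cells gave 1 for red against green, 1 for radiation in green cells, 132 for radiation in red cells, 0 for the red minus green radiation effect. Treg-like cells then gave 0 for red against green, 0 for radiation in green cells, 1 for radiation in red cells, 2 for the red minus green radiation effect. CD4 conventional-like cells then gave 0 for red against green. Tnfsf10 for radiation in green cells in CD8-like cells -0.19, Fasl for radiation in red cells in CD8-like cells 0.14, Fasl for red against green in Treg-like cells 0.56 (adjusted p = 1), Tnfrsf10b for red against green in Treg-like cells -0.68, Tnfsf10 for radiation in red cells in Treg-like cells -0.0700, Fas for the red minus green radiation effect in Treg-like cells 0.57, Fasl for red against green in CD4 conventional-like cells 0.23, Fas for red against green in CD4 conventional-like cells -0.000261, Fasl for the red minus green radiation effect in CD4 conventional-like cells 0.41, Tnfsf10 for the red minus green radiation effect in CD4 conventional-like cells 0.91 took the other sign on the log2 scale. No longer past the threshold was Fas for red against green in CD8-like cells 0.0497 (adjusted p = 1), Fasl for radiation in green cells in CD8-like cells 0.52 (adjusted p = 0.351).

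With the replicate number as a block, CD8-like cells gave 3 for FTY720. Treg-like cells then gave 7 for radiation in green cells, 20 for radiation in red cells, 5 for radiation at day 1, 11 for radiation under FTY720. Among CD4 conventional-like cells there were 2 for radiation in red cells, 1 for radiation at day 1, 8 for radiation under FTY720. Fasl for FTY720 in CD4 conventional-like cells -0.0382 took the other sign on the log2 scale.

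Without the block on the tumour pool, CD8-like cells gave 332 for red against green. CD4 conventional-like cells then gave 3 for red against green.

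Without thinning, the shares of CD4 conventional-like cells were Fas 28.3%, Fasl and Tnfsf10 38.4%. The shares of CD8-like cells were Fas 34.9%, Fasl 86.1%, Fasl and Fas 30.1%, Fasl and Tnfsf10 63.7%, Tnfrsf10b 7.88%, Tnfsf10 70.6%, Tnfsf10 and Tnfrsf10b 5.35%. The shares of Treg-like cells were Fas 31.1%, Fasl 27.3%, Fasl and Fas 6.19%, Fasl and Tnfsf10 18%, Tnfrsf10b 26%, Tnfsf10 56.8%, Tnfsf10 and Tnfrsf10b 16.7%. The shares of naive CD4-like cells were Tnfsf10 10.1%, Tnfsf10 and Tnfrsf10b 0%. The shares of naive CD8-like cells were Fas 32.2%, Fasl 49.7%, Fasl and Fas 15.4%, Fasl and Tnfsf10 34.4%, Tnfrsf10b 30.5%, Tnfsf10 53.5%, Tnfsf10 and Tnfrsf10b 15.7%.

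With clones by alpha and beta chains together, on the log2 scale clones, Fas, expanded minus other CD8-like stood at 0.15 (exact permutation adjusted p = 0.724).

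With at least 3 cells per clone, on the log2 scale clones, Tnfsf10, expanded minus other CD8-like stood at -0.0469 (exact permutation adjusted p = 0.711), clones, Tnfrsf10b, expanded minus other CD8-like stood at -1.07 (exact permutation adjusted p = 0.125).

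Leaving out each tumour pool in turn, the counts in CD8-like cells ran from 5 to 93 for radiation in red cells, 0 to 25 for radiation at day 1, 70 to 427 for radiation under FTY720, 0 to 47 for the day 3 minus day 1 radiation effect, 98 to 512 for radiation in green cells, 1 to 6 for the red minus green radiation effect, 264 to 784 for red against green, 124 to 545 for radiation at day 3, 0 to 2 for FTY720. The counts in Treg-like cells ran from 0 to 3 for radiation at day 1, 2 to 16 for radiation under FTY720, 0 to 11 for radiation in green cells, 0 to 97 for radiation in red cells, 0 to 2 for the red minus green radiation effect, 23 to 147 for red against green, 0 to 97 for radiation at day 3, 0 to 2 for the day 3 minus day 1 radiation effect. The counts in CD4 conventional-like cells ran from 0 to 2 for radiation in green cells, 1 to 27 for radiation under FTY720, 27 to 115 for the day 3 minus day 1 radiation effect, 1 to 19 for red against green, 1 to 5 for the red minus green radiation effect, 32 to 304 for radiation at day 3, 0 to 6 for FTY720, 0 to 1 for radiation in red cells, 0 to 7 for radiation at day 1. The log2 differences ran from Fasl for radiation in green cells in CD8-like cells 0.55 to 0.72 (past the threshold in 9 of 12), Fas for red against green in CD8-like cells 0.77 to 1.03 (past the threshold in 6 of 12), Fasl for red against green in Treg-like cells -1.57 to -1.32 (past the threshold in 6 of 8), Fasl, naive CD8-like minus Treg-like among neighbours 1.46 to 1.60 (past the threshold in 1 of 9), Fasl, CD8-like minus CD4 conventional-like among neighbours 0.46 to 0.60 (past the threshold in 1 of 11), Tnfsf10, Treg-like minus naive CD8-like among neighbours 0.40 to 0.73 (past the threshold in 1 of 9), Tnfsf10, CD4 conventional-like minus Treg-like among neighbours 0.60 to 0.85 (past the threshold in 2 of 11), Fas, CD4 conventional-like minus naive CD4-like among neighbours -0.56 to 1.11 (past the threshold in 0 of 5), Fas, naive CD4-like minus CD8-like among neighbours -0.74 to 0.57 (past the threshold in 0 of 5), Fas, CD8-like minus Treg-like among neighbours -0.0481 to 0.14 (past the threshold in 0 of 12), Fasl, CD8-like minus CD4 conventional-like among all pairs 0.46 to 0.60 (past the threshold in 6 of 11), Tnfrsf10b, CD4 conventional-like minus Treg-like among all pairs -1.63 to -0.97 (past the threshold in 3 of 11), Fas, CD4 conventional-like minus Treg-like among all pairs 0.36 to 0.69 (past the threshold in 1 of 11), Fas, CD8-like minus Treg-like among all pairs -0.0481 to 0.14 (past the threshold in 0 of 12). Those whose sign turned, none of them past the threshold with all pools, were Tnfsf10 for radiation in green cells in CD8-like cells -0.0857 to 0.10, Tnfsf10 for FTY720 in CD8-like cells -0.0501 to 0.26, Fasl for the day 3 minus day 1 radiation effect in CD8-like cells -0.13 to 0.11, Tnfsf10 for radiation under FTY720 in Treg-like cells -1.41 to 0.75, Tnfsf10 for radiation at day 1 in Treg-like cells -0.12 to 0.49, Fas for the day 3 minus day 1 radiation effect in Treg-like cells -0.51 to 0.0764, Tnfrsf10b for the red minus green radiation effect in Treg-like cells -0.55 to 0.48, Fas for radiation in red cells in CD4 conventional-like cells -1.64 to 0.50, Fasl for radiation at day 1 in Treg-like cells -0.65 to 0.13, Tnfsf10 for radiation in red cells in CD4 conventional-like cells -0.91 to 0.0595, Tnfsf10 for radiation at day 1 in CD4 conventional-like cells -0.90 to 0.0343, Fasl for the red minus green radiation effect in CD4 conventional-like cells -0.49 to 0.25, Tnfsf10 for the red minus green radiation effect in CD4 conventional-like cells -0.33 to 0.47, Fasl for radiation in red cells in CD8-like cells -0.22 to 0.0504, Tnfsf10 for radiation at day 3 in CD4 conventional-like cells -0.47 to 0.65, Tnfrsf10b for radiation at day 3 in CD8-like cells -0.53 to 0.44, Fasl for radiation at day 3 in Treg-like cells -0.60 to 0.82, Tnfrsf10b for FTY720 in Treg-like cells -0.83 to 0.32, Fasl for the day 3 minus day 1 radiation effect in Treg-like cells -0.48 to 0.94, Fasl for radiation at day 3 in CD4 conventional-like cells -0.66 to 0.56, Fasl for FTY720 in CD4 conventional-like cells -0.20 to 0.42, Tnfsf10 for radiation at day 1 in CD8-like cells -0.16 to 0.00214, Fas for the red minus green radiation effect in Treg-like cells -1.25 to 0.0352, Fas for radiation at day 1 in CD4 conventional-like cells -0.28 to 0.66, Tnfrsf10b for radiation in green cells in Treg-like cells -0.0725 to 0.66, Tnfsf10 for radiation at day 3 in Treg-like cells -0.38 to 0.0649, Fas for radiation at day 3 in CD4 conventional-like cells -1.07 to 0.35, Tnfrsf10b for radiation at day 3 in CD4 conventional-like cells -3.89 to 1.31, Tnfrsf10b for the day 3 minus day 1 radiation effect in CD4 conventional-like cells -3.57 to 1.63, Fas for FTY720 in CD8-like cells -0.70 to 0.0506, Tnfrsf10b for FTY720 in CD8-like cells -2.82 to 0.0166, Fasl for radiation under FTY720 in Treg-like cells -0.44 to 1.15, Tnfsf10 for FTY720 in Treg-like cells -0.97 to 0.12, Fas for radiation in red cells in CD8-like cells -0.0646 to 0.29, Fas for radiation under FTY720 in CD8-like cells -0.26 to 1.24, Tnfrsf10b for radiation under FTY720 in Treg-like cells -2.13 to 0.18.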
